A study of Homo sapiens with 27 samples.

Results

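Aminoacyl-tRNA synthetases are the enzymes that join each amino acid to its transfer RNA, and the mRNA of 36 of them is described here in colorectal cancer (CRC) cells that had become resistant to 5-fluorouracil (5-FU) or oxaliplatin (OX). The members are defined by gene symbol, a rule that uses no measured value, though they were chosen with earlier results of these data known. They are 36 of the 26255 genes in the deposited tables. Of these, 20 encode cytosolic enzymes and 16 encode mitochondrial enzymes, which are nuclear genes whose names end in 2. RNA sequencing covered 3 human CRC cell lines, HCT116, SW480 and DLD-1, and the question for each line was how resistant cells differed from their untreated parent cells (WT). The 5-FU res cells had been kept in 5-FU that was raised in steps, with 5 to 70 µM named in the labels, and the OX res cells likewise in 5 to 35 µM OX, each for about 6 months. WT cells received neither drug. Each of the 9 line-by-condition groups had 3 libraries, 27 in all. It is not stated whether the libraries within a group derive from separate cultures or from 1 resistant population, so p-values measure only how far these libraries spread, and that spread may be technical.

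Protein synthesis in the cytosol and in mitochondria uses separate sets of synthetases, apart from GARS and KARS, each of which encodes both forms of its enzyme. When uncharged tRNA accumulates, the kinase GCN2 phosphorylates the initiation factor eIF2, general translation slows, and the transcription factor ATF4 is translated more. ATF4 raises the transcription of genes for amino acid synthesis and transport and of many cytosolic synthetases, and it binds C/EBP-ATF response elements. A list of 13 cytosolic synthetases known as ATF4 targets (AARS, CARS, EPRS, GARS, IARS, LARS, MARS, NARS, SARS, TARS, VARS, WARS and YARS) was therefore read apart from the other 7 (DARS, FARSA, FARSB, HARS, KARS, QARS and RARS).

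The core of the C/EBP-ATF element, TGATGNAA, was searched on both strands of the RefSeq promoter windows, which run from 250 bases before to 50 bases after an annotated start on GRCh38.p14. A window was found for 30 of the 36 members, 14 of them through a current symbol that differs from the deposited one. The core was present in 7 of 10 ATF4-list members with a window, 0 of 6 other cytosolic members and 1 of 14 mitochondrial members, while 4.46% of the 27305 genes with a window had it. A gene with more than 1 window was counted, here and below, if any of them held the motif. EPRS, SARS and WARS were the ATF4-list members with a window but no core. The 8 stretches that hold the core are shown to give its letters and surroundings in each gene, 7 on the ATF4 list and 1 (YARS2) mitochondrial, with the core in capitals, 11 bases on either side in lower case, and each written along its own gene's strand, so that the core reads TGATGNAA or its reverse complement.
AARS (chr16:70289675-70289704, minus strand): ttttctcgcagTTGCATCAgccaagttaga
CARS (chr11:3057407-3057436, minus strand): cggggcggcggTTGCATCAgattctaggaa
GARS (chr7:30594834-30594863, plus strand): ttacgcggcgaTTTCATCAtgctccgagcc
IARS (chr9:92293692-92293721, minus strand): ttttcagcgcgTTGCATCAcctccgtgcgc
MARS (chr12:57488053-57488082, plus strand): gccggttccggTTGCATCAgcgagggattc
NARS (chr18:57621804-57621833, minus strand): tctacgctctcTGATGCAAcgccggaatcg
TARS (chr5:33440956-33440985, plus strand): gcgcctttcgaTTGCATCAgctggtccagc
YARS2 (chr12:32756076-32756105, minus strand): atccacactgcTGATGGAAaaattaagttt
Positions of these cores relative to the start were -187 in AARS, -2 in CARS, -33 in GARS, -13 in IARS, -4 in MARS, 15 in NARS, 3 in TARS and -197 in YARS2, with -1 as the last base before the start and 1 as the first base of the transcript. CARS, GARS and TARS each have 2 windows with the core in only 1, and the position is from the start of that window. A second motif, CACGTG, whose letters do not overlap the core, was present in 1 of 10 ATF4-list members (IARS), 0 of 6 other cytosolic members and 3 of 14 mitochondrial members (CARS2, EARS2 and MARS2), against 8.78% of all genes. A match describes the letters of the window and is not evidence of binding.

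Values below are TPM (each transcript's share of its library after allowing for length), obtained by dividing each deposited FPKM by its library's sum, and fold changes are on the log2(TPM + 1) scale, where changes of low genes come out too small. The FPKM sums ran from 451767 to 804635, and the read depth of the libraries is unknown. Libraries of a group correlated at 0.991 to 0.995 across genes. All 36 members passed the filter of at least 1 TPM in at least 3 of a line's 9 libraries, in all 3 lines. On this scale the median of all genes tested was itself above 0 in most comparisons, at 0.18, 0.44 and -0.03 with 5-FU and 0.60, 0.36 and 0.13 with OX for HCT116, SW480 and DLD-1 in that order. The counts of members called are therefore given also after median-of-ratios scaling, which brings that median to between -0.05 and 0.01. Fold changes also ran with transcript length in HCT116 and SW480, and over 4 equal bins of genes by length the medians ran from -0.21 (shortest) to 0.60 (longest) for HCT116 5-FU res, but lay between -0.03 and -0.02 for DLD-1 5-FU res. Median lengths were 2762 bases for ATF4-list members, 2122 bases for other cytosolic members and 2619.5 bases for mitochondrial members. Colorectal epithelial markers summed to at least 5700.0 TPM in every library, mostly from KRT8, KRT18 and KRT19. CDH1 was below WT in every resistant group, and EPCAM in all but HCT116 5-FU res and DLD-1 OX res. In HCT116 OX res libraries EPCAM had 68.3, 70.7 and 65.6 TPM, against 377, 408 and 391 TPM in HCT116 WT libraries. KRT19 and CDX2 were above WT there, KRT8, KRT18 and KRT20 below it, and VIL1 at 0 TPM in both groups. Endothelial and fibroblast markers summed to at most 2.09 and 18.2 TPM. Leukocyte markers reached 71.1 TPM, in HCT116 OX res, almost wholly from CD68, a lysosomal protein of macrophages that other cells also make, with CD3D at 0 TPM and PTPRC at 0.0222 TPM there, and their part in the results was not tested.

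The summed mRNA of the ATF4-list synthetases lay above WT in some lines and below it in others, and part of this depended on the scaling. With OX, the sum was 2160 ± 54.1 TPM in HCT116 OX res and 1371 ± 30.6 TPM in HCT116 WT (SD, n = 3 each, here and below), but 2128 ± 29.7 TPM in DLD-1 OX res and 2776 ± 34.5 TPM in DLD-1 WT. With 5-FU the order was turned round, at 1200.3 ± 31.3 TPM in HCT116 5-FU res against the same HCT116 WT libraries and 3590.0 ± 181 TPM in DLD-1 5-FU res against the same DLD-1 WT libraries. In SW480, both 5-FU res (1233 ± 7.56 TPM) and OX res (1503 ± 34.2 TPM) lay above WT (1069 ± 73.3 TPM). No resistant group overlapped its WT group in this sum. Expressed as a log2 ratio to WT, the sum stood at -0.19 with 5-FU and 0.66 with OX in HCT116, 0.21 and 0.49 in SW480, and 0.37 and -0.38 in DLD-1. After median-of-ratios scaling it stood at -0.46 and -0.0085 in HCT116, -0.30 and 0.044 in SW480, and 0.40 and -0.52 in DLD-1, so the SW480 5-FU ratio turned below WT and the HCT116 OX res and WT groups overlapped. The opposite directions in HCT116 and DLD-1 were thus kept with 5-FU and lost with OX. Mitochondrial synthetases summed to 375 ± 5.34 TPM in HCT116 5-FU res and 434 ± 4.96 TPM in HCT116 WT, and the other sums lay between 447 and 505 TPM. After median-of-ratios scaling the log2 ratio of this sum to WT was -0.48 with 5-FU and -0.62 with OX in HCT116. It was -0.52 and -0.45 in SW480, and 0.04 and -0.11 in DLD-1. The other 7 cytosolic enzymes were at 775 ± 4.24 TPM in HCT116 5-FU res cells and 791 ± 11.6 TPM in the OX res cells of that line, against 995 ± 9.87 TPM in HCT116 WT. In DLD-1 WT cells the ATF4-list sum was already higher than in HCT116 WT or SW480 WT cells.

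**Figure D1:**
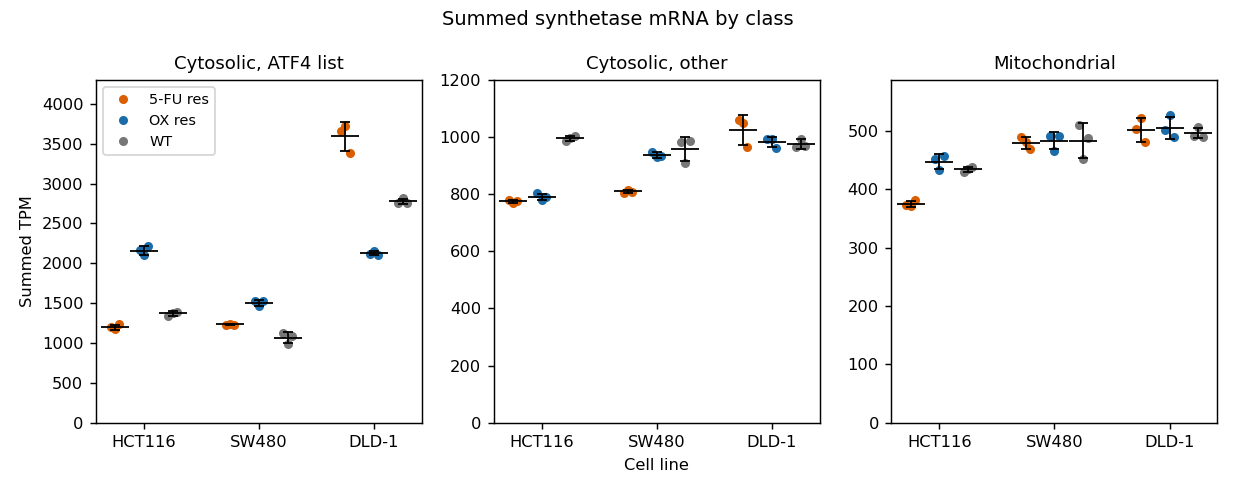
Summed TPM (vertical axis) of the 13 ATF4-list cytosolic, 7 other cytosolic and 16 mitochondrial synthetases by cell line (horizontal axis). Points are libraries, with 3 per group, and bars are the mean and SD. The ATF4-list sum was above WT in HCT116 OX res, both SW480 groups and DLD-1 5-FU res, and below WT in HCT116 5-FU res and DLD-1 OX res, but after median-of-ratios scaling SW480 5-FU res lay below WT (log2 ratio -0.30) and HCT116 OX res overlapped WT (-0.0085).

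In HCT116 cells, 5-FU resistance went with lower mRNA of most cytosolic synthetases. Of the 36 members, 8 rose and 20 fell at a Benjamini-Hochberg adjusted p under 0.05 in limma, beside 47.3% of all genes higher and 27.5% lower, and after median-of-ratios scaling 3 rose and 28 fell, beside 35.7% and 40.7%. Of the 13 ATF4-list members 4 rose and 9 fell, with a median of -0.35, and of the other 7 cytosolic members 1 rose and 5 fell. After that scaling the counts were 2 and 9 on the ATF4 list and 0 and 6 among the other cytosolic members. HARS, the histidyl-tRNA synthetase, had 47.99, 47.4 and 46.00 TPM in 5-FU res libraries, against 102, 102 and 102 TPM in WT libraries (log2 fold change -1.10 ± 0.05 SE, adjusted p = 7.6e-09). It fell the most of the 36. YARS, the tyrosyl-tRNA synthetase, had 51.4, 49.5 and 47.4 TPM in 5-FU res libraries, against 86.9, 94.7 and 94.2 TPM in WT libraries (log2 fold change -0.88 ± 0.05 SE, adjusted p = 2.6e-08). Members of the multisynthetase complex, a cytosolic assembly of 8 synthetases and 3 scaffold proteins, did not move together, since 4 rose and 4 fell, or 2 and 4 after median-of-ratios scaling. EPRS, the bifunctional glutamyl-prolyl enzyme of that complex, had 124, 120.1 and 129.6 TPM in 5-FU res libraries, against 71.7, 77.2 and 81.4 TPM in WT libraries (log2 fold change 0.69 ± 0.05 SE, adjusted p = 2.9e-07). LARS, the leucyl-tRNA synthetase, which is also a leucine sensor for mTORC1, had 93.05, 89.5 and 100.3 TPM in 5-FU res libraries, against 56.4, 60.8 and 63.2 TPM in WT libraries (log2 fold change 0.64 ± 0.06 SE, adjusted p = 9.7e-07). For all of these the groups did not overlap. That was a condition for naming the largest changes of each comparison with WT, here and below, so it adds nothing to the test. After median-of-ratios scaling EPRS and LARS were the 2 cytosolic members that still rose.

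Mitochondrial members of HCT116 5-FU res cells were split, with 3 higher, 6 lower and 7 not passing the test, and a median of -0.07, but after median-of-ratios scaling 1 was higher and 13 were lower. SARS2, the mitochondrial seryl-tRNA synthetase, had 28.01, 26.2 and 24.02 TPM in 5-FU res libraries, against 49.1, 48.1 and 48.6 TPM in WT libraries (log2 fold change -0.88 ± 0.07 SE, adjusted p = 2.2e-07). FARS2, the mitochondrial phenylalanyl enzyme, had 7.54, 10.3 and 7.22 TPM in 5-FU res libraries, against 13.3, 14.5 and 14.2 TPM in WT libraries (log2 fold change -0.70 ± 0.11 SE, adjusted p = 1.6e-04). Both fell, with no overlap between groups. WARS2, the mitochondrial tryptophanyl enzyme, had 9.46, 10.5 and 9.80 TPM in 5-FU res libraries, against 7.38, 6.52 and 6.67 TPM in WT libraries (log2 fold change 0.47 ± 0.08 SE, adjusted p = 2.8e-04). RARS2, the mitochondrial arginyl enzyme, had 44.6, 47.6 and 52.6 TPM in 5-FU res libraries, against 39.1, 39.4 and 36.9 TPM in WT libraries (log2 fold change 0.32 ± 0.07 SE, adjusted p = 0.00101), a rise that no longer passed the test after median-of-ratios scaling. HARS and HARS2 overlap on opposite strands over 108 bases of chromosome 5 (140071015 to 140071122, GRCh37). The study's methods name a stranded library kit. Whether strand was used in the authors' counting is not stated, so reads there cannot be assigned to either with certainty.

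In HCT116 OX res cells a few ATF4-list synthetases stood far above WT. Of the 36 members 19 rose and 11 fell, beside 68.1% of all genes higher and 18.1% lower, so the share of members higher was below that of all genes. After median-of-ratios scaling 4 rose and 28 fell, beside 39.1% and 39.9%, and the 4 were CARS, WARS, AARS and SARS. Of the 13 ATF4-list members 11 rose and 1 fell (median 0.45), of the other 7 cytosolic members 1 rose and 6 fell (median -0.45), and of the 16 mitochondrial members 7 rose and 4 fell (median 0.12). After that scaling the counts were 4 and 8 on the ATF4 list, 0 and 7 among other cytosolic members and 0 and 13 among mitochondrial members. CARS, the cysteinyl-tRNA synthetase, had 167, 153 and 162 TPM in OX res libraries, against 41.7, 46.8 and 46.5 TPM in WT libraries (log2 fold change 1.81 ± 0.06 SE, adjusted p = 6.8e-11). Its lowest OX res library was more than 3 times its highest WT library. WARS, the tryptophanyl enzyme, which interferon gamma is known to induce, had 271, 254 and 269 TPM in OX res libraries, against 89.6, 92.3 and 89.2 TPM in WT libraries (log2 fold change 1.54 ± 0.04 SE, adjusted p = 3.5e-11). Of 20 interferon-response genes fixed as a list, 19 rose and 0 fell in the same comparison (median 1.56), beside 68.1% and 18.1% of all genes. In HCT116 5-FU res 0 rose and 17 fell (median -2.55), beside 47.3% and 27.5%. These interferon counts are on the TPM scale only, and the part of that response in the WARS values was not tested. AARS, the alanyl enzyme, had 242, 231 and 256 TPM in OX res libraries, against 85.8, 84.3 and 87.3 TPM in WT libraries (log2 fold change 1.49 ± 0.05 SE, adjusted p = 6.0e-11). SARS, the seryl enzyme, had 280.1, 270.4 and 287 TPM in OX res libraries, against 133, 131 and 127 TPM in WT libraries (log2 fold change 1.09 ± 0.04 SE, adjusted p = 4.2e-10). None of these groups overlapped.

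VARS, the valyl-tRNA synthetase, was the 1 ATF4-list member that fell on the TPM scale in HCT116 OX res cells, with 93.6, 80.2 and 101 TPM in OX res libraries, against 154, 146 and 142 TPM in WT libraries (log2 fold change -0.69 ± 0.07 SE, adjusted p = 2.4e-06). KARS, the lysyl enzyme of cytosol and mitochondria, had 169, 170.0 and 162 TPM in OX res libraries, against 243, 243 and 237 TPM in WT libraries (log2 fold change -0.53 ± 0.04 SE, adjusted p = 1.1e-07). Both fell. Among mitochondrial members SARS2 had 34.04, 30.7 and 31.7 TPM in OX res libraries, against 49.1, 48.1 and 48.6 TPM in WT libraries (log2 fold change -0.59 ± 0.07 SE, adjusted p = 3.5e-06). YARS2, the mitochondrial tyrosyl enzyme, had 23.2, 24.4 and 23.7 TPM in OX res libraries, against 33.9, 33.8 and 35.97 TPM in WT libraries (log2 fold change -0.52 ± 0.06 SE, adjusted p = 3.2e-06). The largest rises among mitochondrial enzymes depended on the scaling. TARS2, the threonyl enzyme, had 22.6, 19.9 and 21.1 TPM in OX res libraries, against 13.97, 15.7 and 14.2 TPM in WT libraries (log2 fold change 0.51 ± 0.08 SE, adjusted p = 4.8e-05), but -0.12 after median-of-ratios scaling. PARS2, the prolyl enzyme, had 14.8, 12.4 and 15.5 TPM in OX res libraries, against 10.00, 9.90 and 9.44 TPM in WT libraries (log2 fold change 0.49 ± 0.10 SE, adjusted p = 5.2e-04), but also -0.12 after that scaling.

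**Figure D2:**
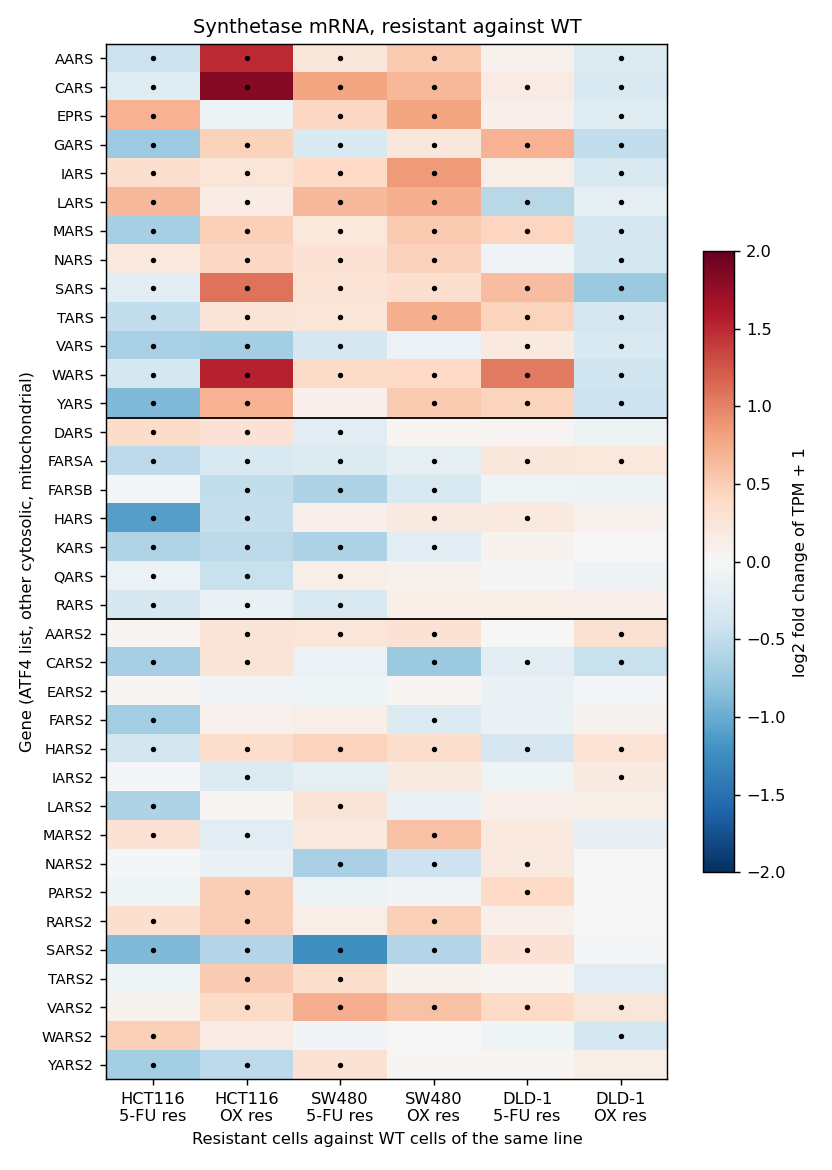
Log2 fold change of TPM + 1 (colour) for the 36 synthetases (rows, in the order ATF4 list, other cytosolic, mitochondrial, divided by lines) in resistant cells against WT cells of the same line (columns). Black dots mark an adjusted p under 0.05 in limma. The values run from -1.23 for SARS2 in SW480 5-FU res to 1.81 for CARS in HCT116 OX res.

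SW480 cells differed from HCT116 in that ATF4-list synthetases were higher with both drugs on the TPM scale. Most of them were not beyond the median gene with 5-FU, but most were with OX. In SW480 5-FU res cells 17 members rose and 9 fell, beside 61.7% of all genes higher and 15.6% lower, and after median-of-ratios scaling 3 rose (CARS, LARS and VARS2) and 28 fell, beside 34.1% and 36.1%. Of the 13 ATF4-list members 10 rose and 2 fell (median 0.27), and of the other 7 cytosolic members 1 rose and 5 fell (median -0.27). After that scaling the counts turned to 2 and 8 on the ATF4 list and were 0 and 7 among the other cytosolic members. CARS had 61.99, 63.3 and 64.05 TPM in 5-FU res libraries, against 36.8, 36.2 and 35.8 TPM in WT libraries (log2 fold change 0.78 ± 0.07 SE, adjusted p = 2.0e-06). LARS had 60.8, 61.7 and 55.7 TPM in 5-FU res libraries, against 42.1, 32.6 and 38.1 TPM in WT libraries (log2 fold change 0.65 ± 0.09 SE, adjusted p = 6.4e-05). Both rose, and their groups did not overlap. FARSB, the beta subunit of the phenylalanyl enzyme, had 44.5, 45.9 and 44.2 TPM in 5-FU res libraries, against 74.8, 63.2 and 71.1 TPM in WT libraries (log2 fold change -0.62 ± 0.07 SE, adjusted p = 1.2e-05). KARS had 154, 154 and 152 TPM in 5-FU res libraries, against 239, 226 and 242 TPM in WT libraries (log2 fold change -0.62 ± 0.04 SE, adjusted p = 2.4e-07). Both of these fell with no overlap.

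Among the 16 mitochondrial members of SW480 5-FU res cells 6 rose and 2 fell, or 1 and 13 after median-of-ratios scaling. VARS2, the valyl enzyme, had 31.4, 29.3 and 31.6 TPM in 5-FU res libraries, against 18.2, 17.9 and 18.7 TPM in WT libraries (log2 fold change 0.72 ± 0.07 SE, adjusted p = 3.0e-06). HARS2, the histidyl enzyme, had 46.2, 49.1 and 46.2 TPM in 5-FU res libraries, against 36.95, 30.7 and 35.97 TPM in WT libraries (log2 fold change 0.44 ± 0.08 SE, adjusted p = 3.0e-04), but -0.05 after median-of-ratios scaling. SARS2 showed the largest fall of any member in any line, with 20.9, 18.9 and 21.2 TPM in 5-FU res libraries, against 44.2, 55.3 and 48.3 TPM in WT libraries (log2 fold change -1.23 ± 0.09 SE, adjusted p = 2.9e-07). NARS2, the asparaginyl enzyme, had 22.3, 19.9 and 15.6 TPM in 5-FU res libraries, against 33.9, 27.4 and 30.3 TPM in WT libraries (log2 fold change -0.65 ± 0.13 SE, adjusted p = 7.8e-04). For SARS2 and NARS2, no SW480 5-FU res library reached the lowest SW480 WT library.

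In SW480 OX res cells 18 members rose and 7 fell, beside 57.4% of all genes higher and 14.5% lower, and after median-of-ratios scaling 5 rose (IARS, EPRS, LARS, TARS and CARS) and 20 fell, beside 32.5% and 36.4%. Of the 13 ATF4-list members 12 rose and 0 fell (median 0.52), and of the other 7 cytosolic members 1 rose and 3 fell (median 0.04). After that scaling the counts were 5 and 2 on the ATF4 list and 0 and 7 among the other cytosolic members. IARS, the isoleucyl enzyme of the multisynthetase complex, had 150.4, 138 and 145 TPM in OX res libraries, against 91.9, 66.7 and 82.1 TPM in WT libraries (log2 fold change 0.85 ± 0.10 SE, adjusted p = 2.0e-05). EPRS had 92.8, 89.3 and 94.4 TPM in OX res libraries, against 61.3, 44.4 and 53.8 TPM in WT libraries (log2 fold change 0.79 ± 0.10 SE, adjusted p = 3.7e-05). These were the 2 largest rises of the comparison. FARSB had 55.1, 54.5 and 59.4 TPM in OX res libraries, against 74.8, 63.2 and 71.1 TPM in WT libraries (log2 fold change -0.30 ± 0.07 SE, adjusted p = 0.00254). KARS had 203, 199.5 and 204 TPM in OX res libraries, against 239, 226 and 242 TPM in WT libraries (log2 fold change -0.22 ± 0.04 SE, adjusted p = 6.4e-04), a fall that no longer passed the test once the trend with transcript length was removed (-0.03).

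Mitochondrial members of SW480 OX res cells gave 5 higher, 4 lower and 7 not passing the test, or 0 higher and 11 lower after median-of-ratios scaling. CARS2, the cysteinyl enzyme, had 44.3, 41.1 and 42.3 TPM in OX res libraries, against 71.3, 70.3 and 73.4 TPM in WT libraries (log2 fold change -0.74 ± 0.06 SE, adjusted p = 1.5e-06), while cytosolic CARS rose in the same libraries. SARS2 had 32.9, 31.9 and 32.2 TPM in OX res libraries, against 44.2, 55.3 and 48.3 TPM in WT libraries (log2 fold change -0.59 ± 0.09 SE, adjusted p = 1.1e-04), while cytosolic SARS rose by 0.33 on the TPM scale but did not pass the test after median-of-ratios scaling (-0.11, adjusted p = 0.1305 in limma). VARS2 had 26.4, 28.5 and 28.9 TPM in OX res libraries, against 18.2, 17.9 and 18.7 TPM in WT libraries (log2 fold change 0.59 ± 0.07 SE, adjusted p = 2.2e-05). MARS2, the methionyl enzyme, had 19.9, 18.8 and 18.7 TPM in OX res libraries, against 14.5, 10.2 and 13.03 TPM in WT libraries (log2 fold change 0.58 ± 0.11 SE, adjusted p = 7.5e-04). Neither VARS2 nor MARS2 passed the test after median-of-ratios scaling.

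In DLD-1 cells the ATF4-list sum was above WT with 5-FU and below it with OX under both scalings, and the median gene was nearer to 0. In DLD-1 5-FU res cells 14 members rose and 3 fell, beside 20.5% of all genes higher and 25.9% lower, and after median-of-ratios scaling 22 rose and 3 fell, beside 24.9% and 25.6%. Of the 13 ATF4-list members 8 rose and 1 fell (median 0.20), of the other 7 cytosolic members 2 rose and 0 fell, and of the 16 mitochondrial members 4 rose and 2 fell. After that scaling the counts were 11 and 1, 4 and 0, and 7 and 2 in these 3 classes. WARS had 331, 323 and 299 TPM in 5-FU res libraries, against 154, 159 and 152 TPM in WT libraries (log2 fold change 1.03 ± 0.06 SE, adjusted p = 4.0e-08). Here 3 of 14 interferon-response genes tested rose and 3 fell on the TPM scale. GARS had 409, 424 and 394 TPM in 5-FU res libraries, against 257, 250.1 and 245 TPM in WT libraries (log2 fold change 0.70 ± 0.04 SE, adjusted p = 7.2e-08). LARS was the 1 cytosolic member that fell, with 63.6, 69.1 and 57.7 TPM in 5-FU res libraries, against 93.9, 93.5 and 93.7 TPM in WT libraries (log2 fold change -0.56 ± 0.06 SE, adjusted p = 1.0e-05). None of these groups overlapped, and the direction of LARS was opposite to its direction in HCT116 and SW480 5-FU res cells.

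Of the mitochondrial members in DLD-1 5-FU res cells, VARS2 had 23.9, 24.2 and 25.1 TPM in 5-FU res libraries, against 17.2, 18.5 and 19.1 TPM in WT libraries (log2 fold change 0.40 ± 0.06 SE, adjusted p = 2.3e-04). PARS2 had 9.96, 11.1 and 10.4 TPM in 5-FU res libraries, against 7.75, 7.32 and 8.05 TPM in WT libraries (log2 fold change 0.40 ± 0.09 SE, adjusted p = 0.00305). Both rose. HARS2 had 21.5, 22.2 and 19.4 TPM in 5-FU res libraries, against 29.1, 28.5 and 23.4 TPM in WT libraries (log2 fold change -0.34 ± 0.08 SE, adjusted p = 0.00471). CARS2 had 37.6, 35.3 and 34.5 TPM in 5-FU res libraries, against 41.95, 40.7 and 41.9 TPM in WT libraries (log2 fold change -0.21 ± 0.06 SE, adjusted p = 0.0118), and both HARS2 and CARS2 fell.

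In DLD-1 OX res cells all 13 ATF4-list members fell, from -0.18 to -0.74 with a median of -0.33, and they fell also after median-of-ratios scaling. Over the 36 members 5 rose and 15 fell, beside 38.7% of all genes higher and 11.2% lower, and after that scaling 1 rose and 23 fell, beside 24.2% and 22.0%. SARS had 215, 215 and 211 TPM in OX res libraries, against 349.8, 365 and 359 TPM in WT libraries (log2 fold change -0.74 ± 0.04 SE, adjusted p = 8.2e-08). GARS had 177, 177 and 180.4 TPM in OX res libraries, against 257, 250.1 and 245 TPM in WT libraries (log2 fold change -0.49 ± 0.04 SE, adjusted p = 1.6e-06). The groups did not overlap for either. Of the other 7 cytosolic members 1 rose and 0 fell, or 0 and 4 after that scaling. The member that rose, FARSA, the alpha subunit of the phenylalanyl enzyme, had 128, 123 and 119 TPM in OX res libraries, against 103, 105 and 111 TPM in WT libraries (log2 fold change 0.22 ± 0.05 SE, adjusted p = 0.0038), which did not pass the test after median-of-ratios scaling.

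Of the 16 mitochondrial members in DLD-1 OX res cells 4 rose and 2 fell, or 1 and 6 after median-of-ratios scaling. CARS2 had 28.3, 31.99 and 30.9 TPM in OX res libraries, against 41.95, 40.7 and 41.9 TPM in WT libraries (log2 fold change -0.44 ± 0.06 SE, adjusted p = 7.5e-05). WARS2 had 15.6, 17.2 and 17.8 TPM in OX res libraries, against 22.7, 21.7 and 20.6 TPM in WT libraries (log2 fold change -0.35 ± 0.07 SE, adjusted p = 0.0012). Both fell without overlap. AARS2, the alanyl enzyme, had 19.7, 20.7 and 18.2 TPM in OX res libraries, against 15.8, 14.9 and 15.9 TPM in WT libraries (log2 fold change 0.31 ± 0.07 SE, adjusted p = 0.00224). HARS2 had 33.4, 32.7 and 32.2 TPM in OX res libraries, against 29.1, 28.5 and 23.4 TPM in WT libraries (log2 fold change 0.28 ± 0.08 SE, adjusted p = 0.0142), and its call was lost without the lowest WT library (0.18, adjusted p = 0.0636 in limma) and after median-of-ratios scaling (0.14, adjusted p = 0.1277).

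**Figure D3:**
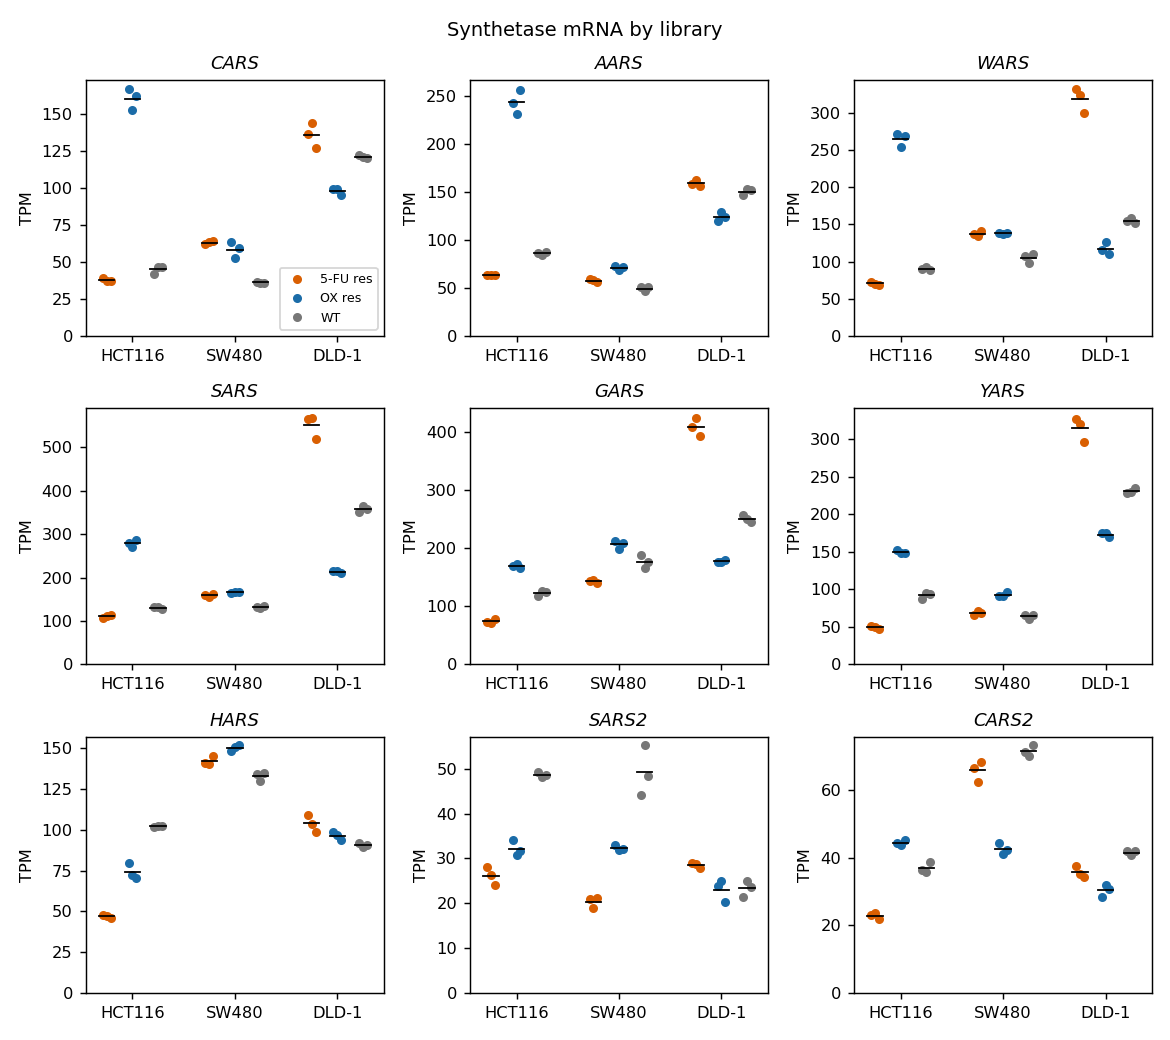
TPM (vertical axes, from 0) of 9 synthetases in each library by cell line (horizontal axes). Points are libraries, with 3 per group, and lines are group means. CARS, AARS, WARS and SARS were highest among HCT116 groups in OX res, and WARS, SARS, GARS and YARS were highest among DLD-1 groups in 5-FU res.

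The difference between the cytosolic and mitochondrial medians changed sign between comparisons. The cytosolic minus mitochondrial median log2 fold change with 5-FU was -0.27 for HCT116, 0.031 for SW480 and 0.099 for DLD-1, and with OX it was 0.13 for HCT116, 0.33 for SW480 and -0.29 for DLD-1. Within libraries, the cytosolic median exceeded the mitochondrial median on the log2(TPM + 1) scale in HCT116 cells by 2.11 ± 0.03 (5-FU res) and 2.69 ± 0.01 (OX res), against 2.30 ± 0.06 (WT). The same gap in SW480 cells was 2.00 ± 0.08 (5-FU res) and 2.38 ± 0.01 (OX res), against 2.05 ± 0.03 (WT). It was 2.86 ± 0.02 in DLD-1 5-FU res and 2.68 ± 0.08 in DLD-1 OX res, against 2.76 ± 0.02 in DLD-1 WT. The change in this gap did not always match the difference of median fold changes in size. In SW480 with 5-FU they differed also in sign, and the change in the gap lay within the SD. As a ratio of sums, cytosolic to mitochondrial mRNA was 9.20 ± 0.159 in DLD-1 5-FU res and 6.16 ± 0.144 in DLD-1 OX res, against 7.57 ± 0.0375 in DLD-1 WT. After quantile normalization the HCT116 5-FU difference of medians turned to 0.14. These class medians describe the members and carry no test.

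**Figure D4:**
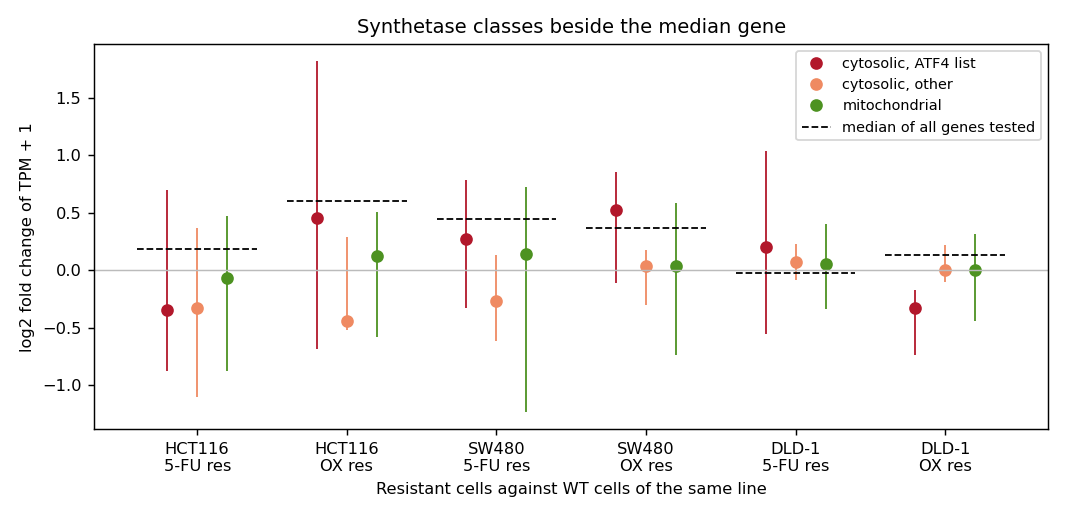
Median (point) and range (line) of the log2 fold change of TPM + 1 for the 3 classes of synthetase in resistant cells against WT cells of the same line (horizontal axis). Dashed lines are the median of all genes tested. In DLD-1 OX res the whole ATF4-list range, -0.74 to -0.18, lay below the median gene, and in HCT116 OX res its median of 0.45 lay below the median gene at 0.60 while its top reached 1.81.

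The cells resistant to the 2 drugs were also set against each other within each line, at the different doses given above. In HCT116, OX res exceeded 5-FU res in 22 members and was lower in 7, beside 56.7% of all genes higher and 20.4% lower, and after median-of-ratios scaling in 15 and 18, beside 35.8% and 38.9%. CARS had 167, 153 and 162 TPM in the HCT116 OX res libraries, against 38.97, 37.2 and 37.5 TPM in the HCT116 5-FU res libraries (log2 fold change 2.05 ± 0.06 SE, adjusted p = 2.4e-11). The ATF4-list median was 1.14 there. In SW480, OX res exceeded 5-FU res in 16 members and was lower in 5, beside 27.3% higher and 34.3% lower, and after median-of-ratios scaling in 20 and 5, beside 32.7% and 31.5%. All 12 cytosolic members called there were higher, with an ATF4-list median of 0.30. In DLD-1, OX res exceeded 5-FU res in 4 members and was lower in 21, beside 44.6% higher and 18.3% lower, and after median-of-ratios scaling in 3 and 29, beside 32.0% and 30.8%. WARS had 115, 126 and 110.5 TPM in the DLD-1 OX res libraries, against 331, 323 and 299 TPM in the DLD-1 5-FU res libraries (log2 fold change -1.43 ± 0.06 SE, adjusted p = 9.7e-10). LARS was the 1 cytosolic member higher in DLD-1 OX res than in DLD-1 5-FU res (0.38).

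Whether the effect of a drug differed among the 3 lines was tested over all 27 libraries with limma's moderated F. It did for 30 of 36 members with 5-FU, beside 84.8% of all genes, and for 32 of 36 with OX, beside 84.1%, so the shares of members were close to the background. Members called higher in one line and lower in another with the same drug numbered 19 with 5-FU and 17 with OX, and 25 with either. The share of all genes with such opposite calls was not counted. These numbers therefore describe the members and cannot be read as particular to them. After median-of-ratios scaling the numbers were 22 and 9, of which 15 and 8 were among those on the TPM scale. MARS, the methionyl enzyme that charges the initiator tRNA, had 79.5, 77.02 and 77.6 TPM in 5-FU res libraries, against 122, 121 and 128 TPM in WT libraries in HCT116 (log2 fold change -0.66 ± 0.04 SE, adjusted p = 7.4e-08). In DLD-1 MARS had 286, 299.8 and 269 TPM in 5-FU res libraries, against 208, 212 and 215 TPM in WT libraries (log2 fold change 0.43 ± 0.05 SE, adjusted p = 2.0e-05). TARS, the threonyl enzyme, had 98.3, 106 and 112 TPM in 5-FU res libraries, against 141, 152 and 154 TPM in WT libraries in HCT116 and 359, 362 and 328 TPM in 5-FU res libraries, against 260.2, 261 and 251 TPM in WT libraries in DLD-1. Its log2 fold change was -0.50 and 0.44 in these lines. NARS, the asparaginyl enzyme, had 175, 181 and 188 TPM in OX res libraries, against 129.9, 135 and 142 TPM in WT libraries in HCT116 and 212, 213 and 216 TPM in OX res libraries, against 273, 272 and 272 TPM in WT libraries in DLD-1, with log2 fold changes of 0.42 and -0.35, but after median-of-ratios scaling it was lower in both (-0.25 and -0.49). AARS had 119, 129 and 123 TPM in OX res libraries, against 146, 152 and 151 TPM in WT libraries in DLD-1, and so fell by 0.28 on the log2 scale, in the comparison that gave a rise of 1.49 in HCT116.

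Opposite calls were also made outside the ATF4 list. With 5-FU, cytosolic FARSA and HARS and mitochondrial LARS2, NARS2 and SARS2 had them under both scalings. For LARS2 they lay between HCT116 and DLD-1 after median-of-ratios scaling (-0.87 and 0.13). With OX, no member outside the list had them under both. The 4 pairs of lines described next had opposite calls on the TPM scale only. DARS, the aspartyl enzyme, had 82.4, 85.4 and 90.8 TPM in 5-FU res libraries, against 63.96, 66.99 and 68.6 TPM in WT libraries in HCT116 and 106, 110.5 and 100.4 TPM in 5-FU res libraries, against 140.2, 106 and 128 TPM in WT libraries in SW480, with log2 fold changes of 0.37 and -0.23 (0.11, not called, and -0.73 after median-of-ratios scaling). QARS, the glutaminyl enzyme, had 148, 137 and 138 TPM in 5-FU res libraries, against 152, 153 and 154 TPM in WT libraries in HCT116 and 158, 158 and 163 TPM in 5-FU res libraries, against 145, 141 and 151 TPM in WT libraries in SW480, with log2 fold changes of -0.12 and 0.13 (-0.39 and -0.38 after that scaling). Both belong to the multisynthetase complex. LARS2, the mitochondrial leucyl enzyme, had 13.1, 11.1 and 12.1 TPM in 5-FU res libraries, against 20.2, 18.5 and 18.5 TPM in WT libraries in HCT116 and 33.5, 31.3 and 32.7 TPM in 5-FU res libraries, against 29.6, 24.03 and 27.6 TPM in WT libraries in SW480, with log2 fold changes of -0.61 and 0.26 (-0.87 and -0.23 after that scaling). IARS2, the mitochondrial isoleucyl enzyme, had 60.9, 59.1 and 66.7 TPM in OX res libraries, against 71.6, 76.2 and 78.7 TPM in WT libraries in HCT116 and 124, 125 and 121 TPM in OX res libraries, against 110.1, 109 and 108 TPM in WT libraries in DLD-1, with log2 fold changes of -0.28 and 0.18 (-0.93 and 0.04, not called, after that scaling). On the TPM scale EARS2, the mitochondrial glutamyl enzyme, passed the test in none of the 6 comparisons with WT, with group means between 19.9 and 34.2 TPM. After median-of-ratios scaling EARS2 was called lower in HCT116 (-0.23 with 5-FU and -0.69 with OX) and in SW480 (-0.58 and -0.39). In DLD-1 it was called lower with OX (-0.18) and not called with 5-FU (-0.11).

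Genes of the ATF4 response outside the synthetases were read beside them, from a list of 35 with 32 or 33 tested per line. In DLD-1 5-FU res cells 30 of 32 rose and 0 fell, beside 20.5% and 25.9% of all genes. After median-of-ratios scaling the counts were also 30 and 0, beside 24.9% and 25.6%. In DLD-1 OX res cells 4 rose and 24 fell, beside 38.7% and 11.2%, or 1 and 26 beside 24.2% and 22.0% after that scaling. In HCT116 5-FU res, 7 of 32 rose and 23 fell, beside 47.3% and 27.5%, or 5 and 25 beside 35.7% and 40.7% after it. In HCT116 OX res, 24 rose and 4 fell, beside 68.1% and 18.1%, or 16 and 11 beside 39.1% and 39.9% after it. In SW480 5-FU res, 12 of 33 rose and 13 fell, beside 61.7% and 15.6%, or 9 and 21 beside 34.1% and 36.1% after it. In SW480 OX res, 25 rose and 4 fell, beside 57.4% and 14.5%, or 12 and 12 beside 32.5% and 36.4% after it. ASNS, the asparagine synthetase and a standard ATF4 target, changed by -1.17 (5-FU) and 0.95 (OX) on the log2 scale in HCT116, by 0.71 and 1.49 in SW480, and by 0.61 and -0.77 in DLD-1. Over the 9 group means, each less its line's mean, the correlation with ASNS had a median of 0.85 for ATF4-list synthetases, 0.05 for other cytosolic and 0.28 for mitochondrial ones. These 9 points share lines and the TPM scaling, and the values describe the pattern only. The lists were chosen with earlier results of these data known. The most like ASNS were MARS (0.983), TARS (0.972) and YARS (0.963), and the ATF4-list members least like it were LARS (-0.155) and EPRS (-0.02). ATF4 mRNA itself changed by -0.17 (5-FU) and 0.61 (OX) in HCT116, by 0.53 and -0.28 in DLD-1, and by 0.36 with OX in SW480, all past the test, while in SW480 5-FU res cells it averaged 330.5 ± 2.01 TPM, against 336 ± 11.3 TPM in WT cells (-0.02, adjusted p = 0.5721 in limma). After median-of-ratios scaling ATF4 in OX res cells was at -0.06 for HCT116 and -0.09 for SW480, neither past the test, while in 5-FU res cells it was at -0.43 for HCT116 and -0.53 for SW480, and at 0.55 (5-FU) and -0.42 (OX) in DLD-1.

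Other parts of the translation machinery were counted beside the synthetases, with the count after median-of-ratios scaling given second. The shares of all genes in the same comparisons, under each scaling, are those given with the ATF4 response. Of 8 synthetase partners and proofreading factors, 4 rose and 3 fell in HCT116 5-FU res cells (2 and 4 after scaling) and likewise 4 and 3 in HCT116 OX res cells (2 and 5). In SW480 these counts were 2 and 4 with 5-FU (1 and 6) and 2 and 3 with OX (2 and 6), and in DLD-1 they were 2 and 0 with 5-FU (2 and 0) and 2 and 2 with OX (0 and 3). Of 9 genes of cytosolic elongation, which include EEF2K, the kinase that inhibits elongation factor EEF2, 5 rose and 4 fell in HCT116 5-FU res cells (4 and 4) and 1 rose and 6 fell in HCT116 OX res cells (1 and 8). In SW480 0 of the 9 rose and 7 fell with 5-FU (0 and 9), and 2 rose and 5 fell with OX (0 and 7). In DLD-1 3 of the 9 rose and 1 fell with 5-FU (4 and 1), and 0 rose and 7 fell with OX (0 and 8). Of 13 eIF2 kinases and subunits tested, 4 rose and 8 fell in HCT116 with 5-FU (4 and 9), and 6 rose and 1 fell with OX (2 and 8). In SW480 4 of the 13 rose and 3 fell with 5-FU (0 and 11), and 5 rose and 1 fell with OX (2 and 9), while in DLD-1 4 rose and 2 fell with 5-FU (5 and 2), and 8 rose and 1 fell with OX (4 and 4). Of 15 mitochondrial translation factors tested, 2 rose and 9 fell in HCT116 with 5-FU (1 and 13), and 8 rose and 5 fell with OX (1 and 10). In SW480 5 of the 15 rose and 9 fell with 5-FU (2 and 10), and 4 rose and 4 fell with OX (1 and 11), while in DLD-1 2 rose and 2 fell with 5-FU (3 and 1), and 3 rose and 2 fell with OX (0 and 4).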

How the data were processed

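RNA from 27 libraries of HCT116, SW480 and DLD-1 cells was sequenced, and the authors deposited 1 table of FPKM per library. Per the submitters' processing notes, reads were aligned to hg19 with TopHat2 2.1.1, Bowtie2 2.2.8 and SAMtools 0.1.18, and Cuffdiff 2.2.1 is named, while the study's methods name Cufflinks for the FPKM. Read depth is unknown, since no counts were used here. FPKM divided by the library's sum gave TPM. The log2(TPM + 1) values of each line were fitted with limma 3.58.1 (R 4.3.3, lmFit and eBayes with trend), over genes with at least 1 TPM in at least 3 of 9 libraries, with group as the sole term, and p-values were Benjamini-Hochberg adjusted over all genes tested, with a threshold of 0.05 and no fold threshold. The fitting was tested on simulated data. Python 3.11.15 with pandas 2.3.3, numpy 2.4.6 and matplotlib 3.10.9 made the summaries and plots. Lengths and positions came from GENCODE on GRCh37, where 22422 symbols were found as deposited and 1363 under another name, and promoters from RefSeq.

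The members and lists were chosen with earlier results of these data known. Library values are given for members among the 2 largest changes per direction and class, called and with groups apart, in any of the 6 comparisons with WT, and for members called in opposite directions with the same drug. Alternatives were a pseudocount of 0.1, no filter, median-of-ratios scaling, quantile normalization, a replicate block, each library left out, and removal of the length trend by lowess (span 0.3).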

Additional observations from a re-analysis of the deposited data

Results flagged for a closer look

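The effect of the same drug differed among the cell lines for the members below. They were called higher in one line and lower in another, and the difference itself passed limma's moderated F test over the 27 libraries (adjusted p under 0.05), a test that 84.8% of all genes passed with 5-FU and 84.1% with OX. With 5-FU this held for 19 members. Among cytosolic members, the gap between the largest and the smallest log2 fold change was 0.65 for AARS, 1.02 for CARS, 0.60 for DARS, 0.76 for FARSA, 1.43 for GARS, 1.29 for HARS, 1.21 for LARS, 1.09 for MARS, 0.25 for QARS, 0.84 for SARS, 0.94 for TARS, 0.84 for VARS, 1.38 for WARS and 1.32 for YARS. Among mitochondrial members, the gap between the largest and the smallest log2 fold change was 0.82 for HARS2, 0.87 for LARS2, 0.84 for NARS2, 1.52 for SARS2 and 0.97 for YARS2. With OX it held for 17 members. Among cytosolic members, the gap between the largest and the smallest log2 fold change was 1.77 for AARS, 2.11 for CARS, 1.04 for EPRS, 0.52 for FARSA, 0.94 for GARS, 0.64 for HARS, 1.15 for IARS, 0.90 for LARS, 0.85 for MARS, 0.81 for NARS, 1.83 for SARS, 1.062 for TARS, 1.94 for WARS and 1.11 for YARS. Among mitochondrial members, the gap between the largest and the smallest log2 fold change was 0.995 for CARS2, 0.46 for IARS2 and 0.81 for MARS2. After median-of-ratios scaling, 15 of these 19 and 8 of these 17 were still called in opposite directions. How many of all genes had opposite calls was not counted, so the numbers cannot be read as particular to the synthetases. No cause was tested.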

How the results depend on the processing

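After median-of-ratios scaling, members higher with 5-FU numbered 3 in HCT116, 3 in SW480 and 22 in DLD-1, and members lower 28, 28 and 3. With OX, members higher numbered 4 in HCT116, 5 in SW480 and 1 in DLD-1, and members lower 28, 20 and 23. After quantile normalization, 6 were higher and 18 lower in SW480 with 5-FU, and with OX 9 were higher and 21 lower in HCT116, 0 higher and 24 lower in DLD-1, and 15 lower in SW480. The cytosolic minus mitochondrial median for HCT116 with OX moved to 0.068 after median-of-ratios scaling and 0.041 with the length trend removed, which also gave -0.11 for HCT116 with 5-FU and 0.40 for SW480 with OX. After quantile normalization it was 0.14 for HCT116 with 5-FU, where its sign turned, 0.32 for SW480 with 5-FU, 0.076 for DLD-1 with 5-FU, 0.62 for HCT116 with OX and 0.56 for SW480 with OX. HARS2 in SW480 with 5-FU turned to -0.053 after median-of-ratios scaling. In HCT116 with OX, PARS2 turned to -0.12 and TARS2 to -0.12 after that scaling, and to -0.22 and -0.12 after quantile normalization. Chosen after seeing the data, the log2 ratio of the ATF4-list sum to WT after that scaling was -0.46 in HCT116, -0.30 in SW480 and 0.40 in DLD-1 with 5-FU, and -0.0085, 0.044 and -0.52 with OX. The scaled sums of the other cytosolic and the mitochondrial members given above were likewise chosen after seeing the data. The cause of these shifts was not tested.

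With each library left out in turn, this median with 5-FU ran from -0.31 to -0.22 in HCT116, 0.0035 to 0.075 in SW480 and 0.072 to 0.12 in DLD-1, and with OX from 0.067 (without WT replicate 1) to 0.15 in HCT116, 0.28 to 0.38 in SW480 and -0.31 to -0.27 in DLD-1, while the counts of members in the 6 comparisons stayed within 1.5 times. Same-numbered libraries did not deviate together in all pairs, with correlations from -0.16 to 0.16, so the numbers were taken as names only. Between HCT116 WT and HCT116 OX res, however, same-numbered pairs were at 0.07, 0.16 and 0.15. Pairs with different numbers there lay between -0.15 and -0.01, and the cause of this was not tested. With a replicate block, the members differing between OX res and 5-FU res numbered 29 in HCT116, 21 in SW480 and 26 in DLD-1, and 31 with 5-FU and 33 with OX differed among the lines. Read depth is unknown, so precision rests on 3 libraries per group.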
